A study of Mus musculus with 8 samples.

Results

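Enzymes of drug and aldehyde metabolism outside the cytochrome P450 and glutathione transferase families were examined in liver RNA from 8 calorie-restricted female Ames dwarf mice. Members were all genes with a probe set annotated to exactly 1 symbol that began with Adh, Aldh, Akr, Ces, Ephx, Fmo, Sult or Ugt followed by a digit, and the brightest probe set stood for each gene. This gave 42 genes, represented by 55 probe sets, of 8251 genes with a named probe set. Of the 42 genes, 30 were bright enough to test (a mean intensity at or above 165.2, the median of the whole table) and 12 were not.

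RNA of each liver was hybridised to a separate Affymetrix U74Av2 array, on which sets of short probes report single mouse transcripts. All 8 mice were homozygous for the Ames dwarf mutation (df/df), which leaves the pituitary unable to supply growth hormone, prolactin or thyrotropin. They drank water freely, received 30% less pelleted food than df/df females fed freely, and were killed at 24 to 26 months, and their livers were snap-frozen over dry ice before storage under liquid nitrogen. They form 1 group, so the data hold no measure of the diet, the age or the mutation, and every comparison is between individual mice. Whole livers were used, so fewer cells of a type and less RNA per cell cannot be told apart.

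The liver clears foreign and internally made chemicals in steps. Flavin-containing monooxygenases (Fmo), alcohol and aldehyde dehydrogenases (Adh, Aldh) and aldo-keto reductases (Akr) oxidise or reduce a reactive group, while carboxylesterases (Ces) and epoxide hydrolases (Ephx) split esters and epoxides with water. Sulfotransferases (Sult) and UDP-glucuronosyltransferases (Ugt) then attach a charged group that makes the product easier to excrete. Several of these enzymes also handle the body's own lipids, retinoids, steroids and thyroid hormones, and many are known to be lower in inflamed liver.

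The arrays and the tissue were checked first. Hepatocyte markers were bright, as in the labelled tissue: albumin (Alb) read 23417 to 35343, and a score, the mean deviation of log2 intensity over 7 tested markers, ranged over 0.33 on the log2 scale, from -0.20 in mouse 6 to 0.13 in mouse 1. Markers of cholangiocytes (0 of 3 named genes tested, highest value 57.1) and kidney (0 of 3, highest value 87.8) were too dim to test. Single markers of pancreas (Ctrb1, 615 to 804) and intestine (Fabp2, 446 to 725) were bright enough, while the other named genes of those lists reached at most 37.1 and 82.3. Intensities of 9 spiked hybridization control probe sets fell into sets that the labels do not name. CreX-3 read 15554 to 17571 in mice 1 to 4 and 11361 to 12179 in mice 5 to 8. Mouse 5 had a Gapdh 3′ to 5′ intensity ratio of 2.67, against 0.79 to 1.07 in the other 7 mice, while the actin ratio lay between 1.45 and 2.0 in all 8. The array median ran from 146 in mouse 5 to 178 in mouse 8. The 99th percentile of intensity was 10902 to 11779 in mice 1 to 5 and 9775 to 10025 in mice 6 to 8.

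**Figure D1:**
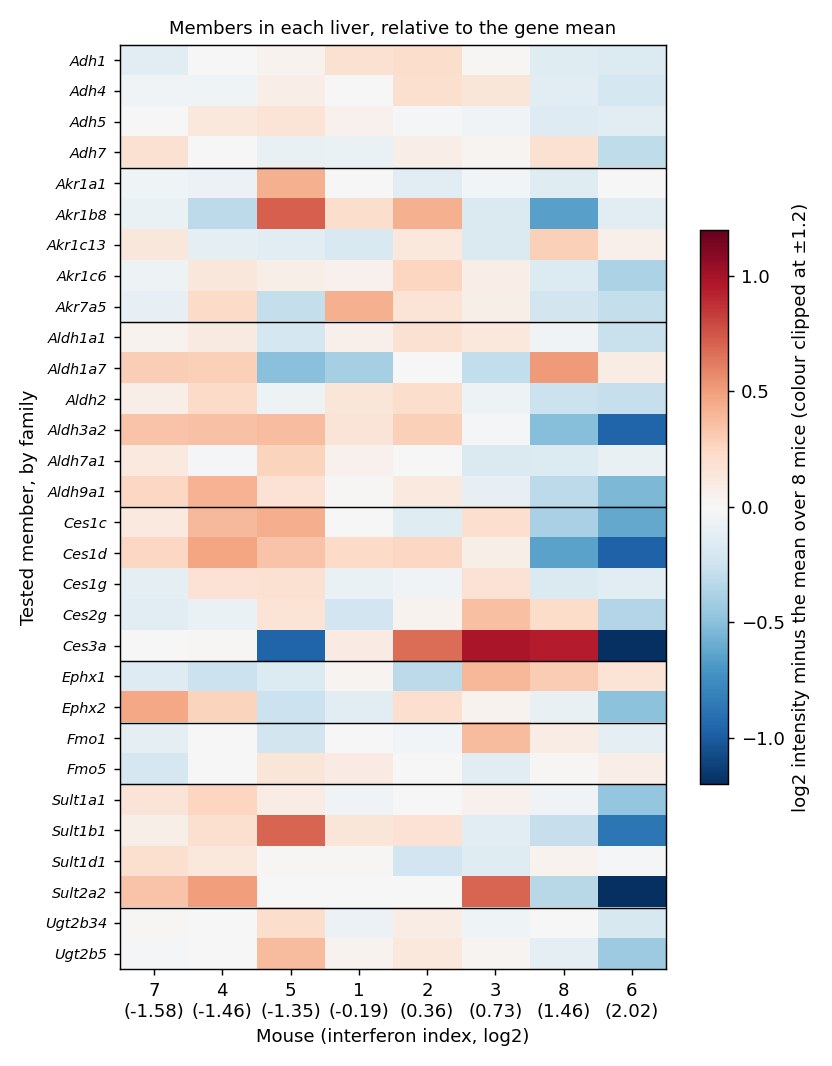
Log2 intensity of the 30 tested genes (rows, grouped by family) in each mouse (columns, ordered by interferon index), as the difference from the gene's mean over the 8 mice, with the colour scale limited at plus and minus 1.2. Mouse 6 had the lowest value in 18 of the 30 genes and the highest in 0.

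Most members were expressed at much the same level in every liver. Of the 30 tested genes, 22 ranged less than 2-fold between the lowest and the highest mouse, and the median range was 1.60-fold. The median SD over mice was 0.21 on the log2 scale, beside 0.23 for all 4869 genes tested. In limma's F test of each gene's variance against that expected at its brightness, 0 of 30 members passed at a Benjamini-Hochberg adjusted p of 0.05, and 0% of all genes did. The lowest adjusted p was 0.44 among the members and 0.26 over the whole table. Because no gene passed, a member that did not pass is not shown by this test to be even between mice. At an unadjusted p under 0.05 there were 2 of 30 members, Ces3a and Sult2a2, where the share of all genes was 5.65%.

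The alcohol dehydrogenases had narrow ranges on their brightest probe sets, at most 1.40-fold. Second probe sets ranged wider, 1.69-fold for Adh5 (4167 in mouse 6 to 7030 in mouse 5) and 1.48-fold for Adh4. Adh1, the main liver enzyme for ethanol, had intensities from 13578 to 17540 with a median of 15242, a 1.29-fold range. Adh5, which oxidises formaldehyde bound to glutathione, ranged from 8706 to 10896 with a median of 9664, at 1.25-fold the narrowest of the 30. Adh4 read 1062 to 1400 (median 1214) and Adh7 954 to 1337 (median 1188). These 4 genes lie together on chromosome 3, Adh7 at chr3:138198064-138232042, Adh1 at chr3:138277585-138290698, Adh4 at chr3:138415456-138432683 and Adh5 at chr3:138437200-138455499 (GRCm38.p6, RefSeq). None of the 4 passed the test of spread, as no gene of the table did, and mouse 6 was lowest for Adh1, Adh4 and Adh7.

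Aldehyde dehydrogenases ranged from 1.36-fold to 2.52-fold between mice. Aldh1a1, which oxidises retinal to retinoic acid, read 13488 to 18436 (median 16837), and Aldh2, the mitochondrial enzyme for acetaldehyde, 8641 to 12259 (median 10560). Aldh7a1, an enzyme of lysine breakdown, read 8560 to 11667 (median 9615). Aldh1a7, a close relative of Aldh1a1, ranged 2.01-fold and had intensities of 2324, 3065, 2484, 3730, 2166, 3261, 3754 and 4361 in mice 1 to 8. Its highest value was in mouse 8 and its lowest in mouse 5. Between Aldh1a7 and Aldh1a1, r was 0.089 over the 8 mice (exact two-sided permutation p = 0.82, rho = -0.095, p = 0.84).

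On their brightest probe sets, Aldh3a2, Aldh9a1 and Aldh2 had their 2 lowest values in mice 6 and 8. For Aldh2 these were 8641 and 8772, and the next value was 10041 in mouse 5. Another Aldh2 probe set was also lowest in mice 6 and 8 (1820 and 2682). A further one was lowest in mouse 5 (5347), then mouse 6 (6038), and read 6586 in mouse 8. With the brightest Aldh2 set r was 0.63 and 0.61, and neither passed (exact permutation adjusted p = 0.10 and 0.12). Aldh3a2, the membrane enzyme that oxidises long-chain fatty aldehydes, read 4445, 4886, 3924, 5103, 5156, 2048, 5082 and 2805 in mice 1 to 8, a 2.52-fold range. Aldh9a1, which makes a precursor of carnitine, read 2976, 3198, 2754, 3932, 3320, 2031, 3501 and 2369, a 1.94-fold range. For Aldh3a2 and Aldh9a1 mouse 3 was the next lowest.

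The monooxygenases and reductases did not pass the test of spread, as no gene of the table did. Fmo5 read 6162 to 7817 (median 7118) and Fmo1 4768 to 7210 (median 5481), and r between them was -0.44 (exact two-sided permutation p = 0.27, rho = -0.24, p = 0.58). Akr1c6, a 17-beta-hydroxysteroid dehydrogenase, read 11630 in mouse 6 and 18142 in mouse 2 (median 15756), and Akr1c13 3952 to 5461 (median 4399). Akr1a1, the aldehyde reductase of ascorbate synthesis, lay between 7076 and 7873 in 7 mice and read 10509 in mouse 5. Akr7a5, a reductase of the aldehyde made from aflatoxin, read 5803, 4835, 4513, 5072, 3526, 3526, 4034 and 3711 in mice 1 to 8. Akr1b8, an aldose reductase relative, read 275, 319, 211, 191, 389, 216, 225 and 151, and its highest value was in mouse 5 and its lowest in mouse 8. The part of the raised Gapdh ratio of mouse 5 in these values was not tested.

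Carboxylesterases held the widest range of all 30 genes. Ces3a read 2041, 3037, 3745, 1919, 977, 572, 1897 and 3672 in mice 1 to 8, a 6.54-fold range, with mice 3 and 8 highest and mice 5 and 6 lowest. Its unadjusted p in limma's F test was 0.0059 and its adjusted p 0.44. Ces1d, a triacylglycerol hydrolase, read 9897, 9993, 8858, 11717, 10726, 4303, 10008 and 5408, and Ces1c, an esterase secreted into plasma, 2924, 2637, 3341, 3827, 3935, 1904, 3154 and 2230. Both had their lowest values in mice 6 and 8, as Aldh3a2 and Aldh9a1 did. Ces1g, a liver lipid hydrolase, read 2492 to 3186 (median 2700), and Ces2g 982 to 1612 (median 1241).

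The 5 carboxylesterase genes all lie on chromosome 8. In GRCm38.p6, Ces1c is at chr8:93099015-93131283 and Ces1d at chr8:93166072-93197804, 34.8 kb apart, and Ces3a at chr8:105048576-105061928. Neighbouring genes of the family can share probe sequence, and the brightest Ces1d probe set is of a type that shares probes with related transcripts. The same holds for Adh5, Aldh2, Aldh7a1, Aldh9a1 and Ugt2b5, so these 6 of the 30 genes are uncertain within their families on their brightest probe sets. A probe set not of this type followed the brightest one for Aldh7a1 (r = 0.94, exact permutation adjusted p = 0.0062) and Adh5 (r = 0.85, adjusted p = 0.012). For Aldh2 such a set did not pass (r = 0.61, adjusted p = 0.12).

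The epoxide hydrolases ranked the mice differently. Ephx1, the microsomal enzyme that opens drug epoxides, read 3341, 2629, 4304, 2737, 2925, 3659, 2950 and 4039 in mice 1 to 8. Ephx2, the soluble enzyme for fatty acid epoxides, read 4211, 5340, 4782, 5595, 3875, 3294, 6418 and 4376. Mice 3, 8 and 6 had the highest values of Ephx1, and mouse 6 had the lowest of Ephx2. Over the 8 mice r between them was -0.44, which did not pass (exact two-sided permutation p = 0.27, rho = -0.36, p = 0.39).

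Of the sulfotransferases bright enough to test, Sult2a2 and Sult1b1 had the widest ranges, while Sult1d1 (1.34-fold) and Sult1a1 (1.65-fold) had narrower ranges than the glucuronosyltransferase Ugt2b5 (1.77-fold). Sult2a2, a hydroxysteroid and bile acid sulfotransferase, read 9043, 9072, 14714, 12829, 9075, 3931, 11512 and 7218 in mice 1 to 8, a 3.74-fold range with mice 6 and 8 lowest. Sult1b1, which acts on thyroid hormones and phenols, read 660, 674, 547, 685, 971, 328, 626 and 494, a 2.96-fold range. Sult1a1, the main phenol sulfotransferase, read 1971, 2036, 2109, 2427, 2161, 1472, 2270 and 1980, and Sult1d1, which acts on catecholamines, 982 to 1315 (median 1161). Ugt2b5 had intensities of 7200 to 12736 (median 9887), and Ugt2b34 of 3543 to 4701 (median 4061). In 5 of these 6 genes mouse 6 was lowest, and Sult1d1 was lowest in mouse 2.

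The 12 dim members were mostly enzymes known from other tissues. Their highest values were 189 for Sult4a1 (a brain sulfotransferase), 182 for Aldh3a1 (the corneal enzyme), 143 for Akr1e1, 113 for Sult2b1, 82.6 for Sult5a1, 77.7 for Akr1c21, 68.3 for Aldh18a1 (an enzyme of proline synthesis) and 54.5 for Aldh1a3. Aldh1a2, Ugt8a (which makes galactosylceramide), Sult3a1 and Sult1c1 stayed in every mouse below 37.2, the table's 25th percentile, which served as a floor. The other 8 read above that floor in 1 or more mice and had means under 165.2.

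Counted by mouse, the tested members were lowest most often in mouse 6. Mouse 6 had the lowest value in 18 of 30 members (60.0%), and in 18.4% of all genes tested. The median member lay 0.27 below its own mean on the log2 scale in mouse 6 and 0.14 below in mouse 8, where the medians over all genes were -0.03 and 0.00. In 13 of the 30 members, mice 6 and 8 were the 2 lowest. Most members were bright, and the part of the lower 99th percentiles of mice 6 to 8 in these counts was not tested. Mouse 5 was highest in 11 members (36.7%) and in 20.8% of all genes. After quantile normalization, added for these counts after seeing the data, mouse 6 was lowest in 16 members (53.3%, against 21.0% of all genes) and mouse 5 highest in 5. With arrays scaled to a common median, which moved the log2 values of mouse 5 by 0.18 and those of mouse 8 by -0.10, mouse 6 was lowest in 18 members (60.0%, against 22.5% of all genes) and mouse 5 highest in 14, against 38.1% of all genes. A single mouse stood apart by Dixon's criterion in 2 of 30 members (Akr1a1 and Sult1a1), where 8.69% of all genes had such a mouse.

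Because the livers differed widely in interferon-induced genes, each gene was regressed on an interferon index, in which no member takes part. The index is the mean over 12 genes (Irf1, Psmb8, Psmb9, Tap1, Gbp2, Gbp3, Igtp, Iigp1, Irgm1, Irgm2, Ifit3 and Isg15) of the deviation of log2 intensity from that gene's mean. It was -0.19, 0.36, 0.73, -1.46, -1.35, 2.02, -1.58 and 1.46 in mice 1 to 8, and the widest gap between neighbouring mice was 1.17, between -1.35 and -0.19. Macrophage markers moved with it: the score over 9 tested of 10 markers reached 1.78 in mouse 6 and 1.08 in mouse 8, and the other 6 mice lay from -0.94 to 0.01. Of 2 tested T and NK cell genes, Ccl5 rose along the index, from 15.1 in mouse 7 to 2069 in mouse 6 (limma adjusted p = 0.013), while Cd4 had a slope of 0.23 and did not pass (adjusted p = 0.35). Among 5 stellate cell genes, the score ran from -0.32 in mouse 5 to 0.44 in mouse 6, and Col1a1 alone passed (slope 0.36, adjusted p = 0.0032). Col3a1 had a slope of 0.35 (adjusted p = 0.071), Des 0.04, Dcn 0.03 and Col1a2 -0.03. Scores of B and plasma cell genes and of endothelial genes, each over 2 tested genes, went the other way (r with the index -0.74 and -0.66). None of these genes passed in limma's test. Slopes were -0.21 for Igha (adjusted p = 0.13), -0.07 for Cd79a (0.66), -0.32 for Kdr (0.079) and -0.02 for Cdh5 (0.95). Cdh5 was highest in mouse 6, at 509. The part of these cells in the members' slopes was not tested. A slope is the difference in log2 intensity per unit of index.

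**Figure D2:**
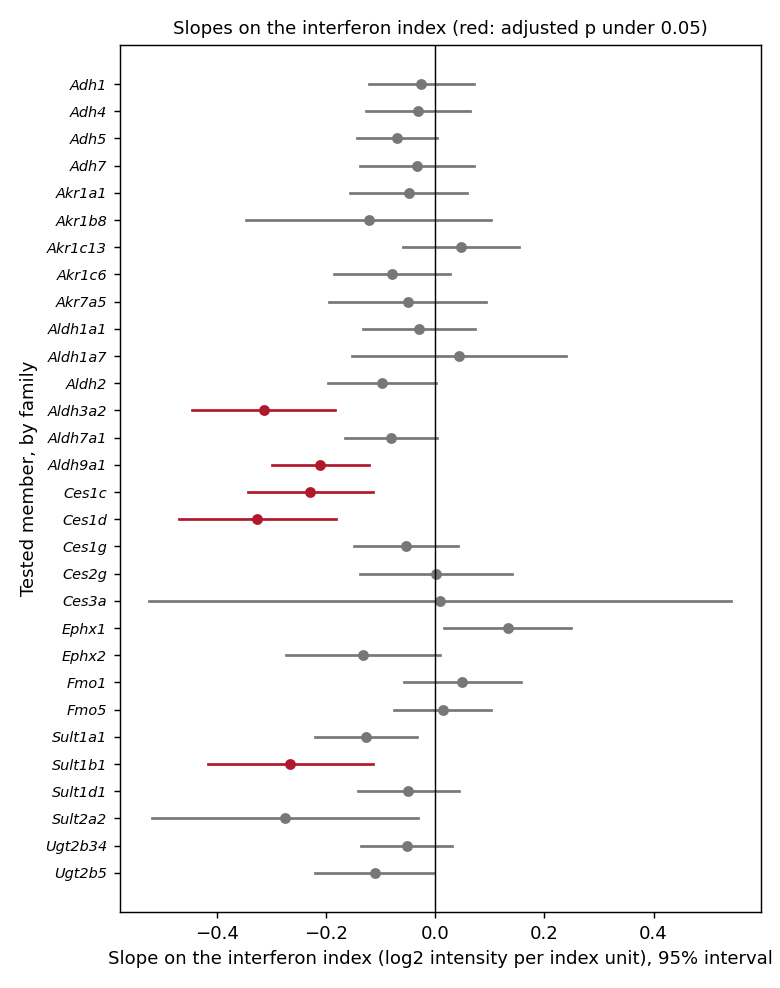
Slope of log2 intensity on the interferon index (x axis, log2 units per index unit) for the 30 tested members, with 95% confidence intervals from limma as bars. The 5 genes past an adjusted p of 0.05 all have slopes below 0, from -0.33 for Ces1d to -0.21 for Aldh9a1.

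Of the 30 members, 5 fell as the index rose, and 0 rose, in limma's test with Benjamini-Hochberg adjustment over all 6252 probe sets in that fit. Over all genes, 2.33% fell and 4.55% rose. The 5 were the aldehyde dehydrogenases Aldh3a2 and Aldh9a1, the carboxylesterases Ces1d and Ces1c, and the sulfotransferase Sult1b1. At an unadjusted p under 0.05, 8 members were lower and 1 higher, beside 12% and 10.6% of all genes. Slopes were below 0 in 23 of 30 members (76.7%) and in 53.3% of all genes, with a median of -0.05 for the members and -0.01 for all genes. With arrays scaled to a common median, 6 members fell and the split over all genes turned from 113 lower and 221 higher to 233 lower and 170 higher. The median slopes were then -0.10 for members and -0.06 for all genes. With the filter at a mean of 543.5, the 75th percentile, 5 members fell, beside 119 lower and 118 higher over all genes. Median slopes there were -0.05 for members and -0.02 for all genes. After quantile normalization 5 members fell, and the medians were -0.04 and -0.02.

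Aldh3a2 had a slope of -0.31 (SE 0.06, 95% interval -0.45 to -0.18, limma adjusted p = 0.011). Across the 8 mice r with the index was -0.89 (exact two-sided permutation p = 0.00060) and rho -0.88 (p = 0.0072), and r was -0.85 without mice 6 and 7, the 2 farthest from the index median. Aldh9a1 had a slope of -0.21 (SE 0.04, interval -0.30 to -0.12, limma adjusted p = 0.011) with r at -0.93 (exact permutation p = 0.00035) and rho at -0.95 (p = 0.0011). Aldh9a1 stayed at r = -0.90 without mice 6 and 7. Its slope was also alike in both array sets, -0.21 in mice 1 to 4 and -0.20 in mice 5 to 8, while that of Aldh3a2 was -0.13 and -0.35.

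Ces1d and Ces1c fell with slopes of -0.33 (SE 0.06, interval -0.47 to -0.18, limma adjusted p = 0.014) and -0.23 (SE 0.05, interval -0.34 to -0.11, adjusted p = 0.026). For Ces1d, r was -0.87 (exact permutation p = 0.00057) and rho -0.90 (p = 0.0046), and for Ces1c r was -0.86 (p = 0.0070) and rho -0.71 (p = 0.058). Without mice 6 and 7, r was -0.84 for Ces1d and -0.86 for Ces1c. Sult1b1 had a slope of -0.27 (SE 0.07, interval -0.42 to -0.11, adjusted p = 0.043), r of -0.81 (exact permutation p = 0.0068) and rho of -0.71 (p = 0.058), and r of -0.84 without mice 6 and 7. In mice 1 to 4 and in mice 5 to 8 the slopes were -0.17 and -0.35 for Ces1d, -0.15 and -0.24 for Ces1c and -0.11 and -0.30 for Sult1b1. With the array set as a second term the adjusted p was 0.0062 for Aldh3a2, 0.0090 for Aldh9a1, 0.0026 for Ces1d, 0.029 for Ces1c and 0.057 for Sult1b1.

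The 5 calls rested on mice 6 and 8, which had the highest index. Without mouse 6, 0 of the 5 passed (adjusted p from 0.107 for Aldh3a2 to 0.30 for Sult1b1), though all 5 slopes stayed below 0, from -0.24 to -0.18. Without mouse 8, Aldh3a2 alone passed (adjusted p = 0.048), Aldh9a1 had 0.0502, and without mouse 4 or mouse 5 the count was 3. With both mice 6 and 8 left out, 0 of the members and 0.247% of all genes passed, and the slopes were -0.13 for Aldh3a2, -0.15 for Aldh9a1, -0.10 for Ces1d, -0.13 for Ces1c and -0.14 for Sult1b1. With the hepatocyte score as a second term 3 members passed, Aldh3a2, Aldh9a1 and Ces1d. An index made from the macrophage markers in place of the interferon genes gave 6, the 5 genes and Sult2a2, and the part of macrophage content in the slopes was not tested.

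**Figure D3:**
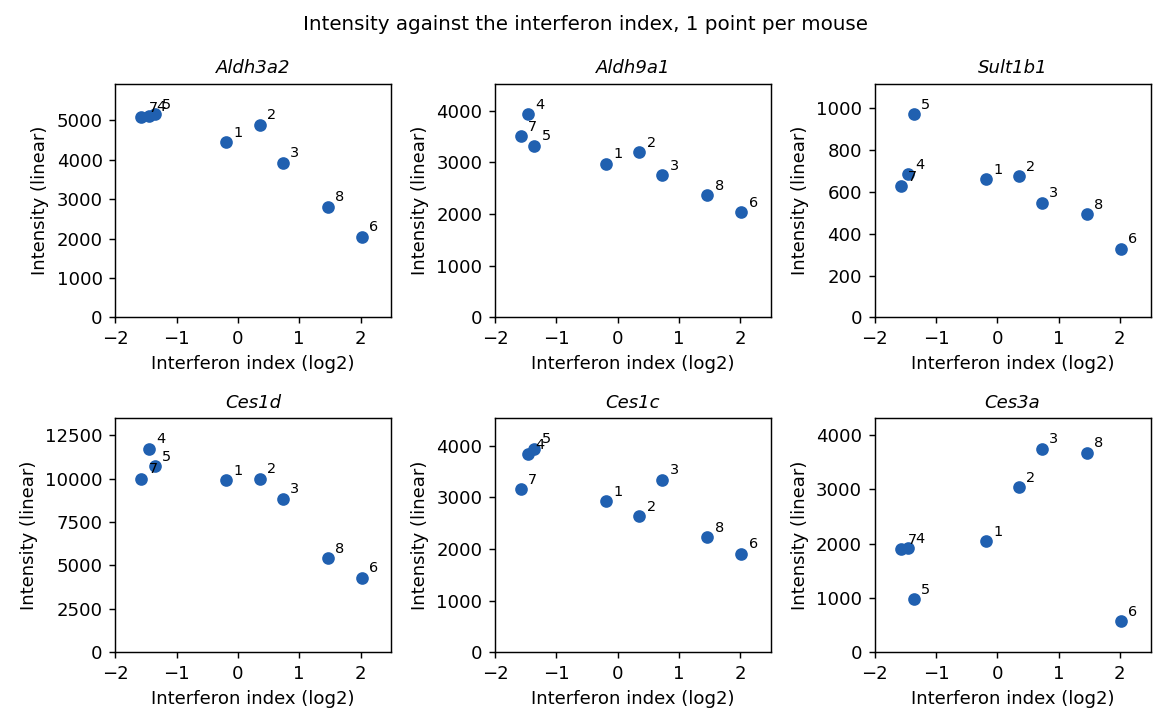
Intensity (y axis, linear, from 0) against the interferon index (x axis, log2) for the 5 members past the threshold and Ces3a, 1 numbered point for each of the 8 mice. Mice 6 and 8, at the high end of the index, have the lowest intensities of Aldh3a2, Aldh9a1, Ces1d, Ces1c and Sult1b1, while Ces3a is lowest in mouse 6 and near its highest in mouse 8.

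Other members had slopes that did not pass. Sult1a1 had -0.13 (interval -0.22 to -0.03, limma adjusted p = 0.103), and it passed with arrays scaled to a common median (adjusted p = 0.042). Sult2a2 had -0.28 (interval -0.52 to -0.03, adjusted p = 0.173), passed without mouse 3 (adjusted p = 0.021), and had an r with the index of -0.65 over 8 mice (exact permutation p = 0.072) and -0.29 without mice 6 and 7. Ephx1 had the one positive slope with an interval above 0, 0.13 (0.02 to 0.25, adjusted p = 0.169). Ces3a had a slope of 0.01 with a wide interval, from -0.52 to 0.54 (adjusted p = 0.99), and its r with the index, 0.013 over 8 mice (exact permutation p = 0.97), was 0.87 without mice 6 and 7. Mouse 6, at the high end of the index, had the lowest Ces3a value, 572, and mouse 8, next to it on the index, had 3672. Adh1, Aldh1a1 and Fmo5, among the least variable members, had slopes of -0.03, -0.03 and 0.01.

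Stretches of 120 bases just before the start of 3 of the 5 genes are printed here because these genes fell together along the index. The start is the outermost one of the gene model, and for Aldh9a1 the stretch lies at -148 to -29 from the start site of the promoter table. They come from RefSeq sequence of GRCm38.p6, read 5′ to 3′ on the gene's strand, with a CCAAT box or its reverse complement in capitals.
Aldh9a1, chr1:167349843-167349962, plus strand: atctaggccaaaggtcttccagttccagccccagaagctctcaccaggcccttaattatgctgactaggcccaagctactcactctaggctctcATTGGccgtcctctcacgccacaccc
Ces1c, chr8:93131284-93131403, minus strand: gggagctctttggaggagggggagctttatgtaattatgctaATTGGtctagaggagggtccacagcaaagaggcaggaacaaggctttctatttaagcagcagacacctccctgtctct
Sult1b1, chr5:87538196-87538315, minus strand: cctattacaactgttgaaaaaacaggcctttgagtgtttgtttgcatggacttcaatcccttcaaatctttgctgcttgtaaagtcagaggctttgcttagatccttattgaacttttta
The motifs searched on both strands were the CCAAT box (CCAAT), the TATA box (TATAAA), the E-box (CACGTG), the nuclear receptor half-site (AGGTCA), the HNF1 half-site (GTTAAT) and the STAT site (TTCNNNGAA). Aldh9a1 and Ces1c each held 1 match of CCAAT, which 21.3% of 32851 windows of this length before mouse genes hold, and 0 matches of the other motifs. Sult1b1 held 0 matches of all 6. The STAT letters occur in 3.15% of the windows, and a match or its absence is only a statement about these letters.

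A second probe set was bright enough for 7 of the 30 genes and gave 8 comparisons. In 7 of the 8, r between the probe sets was over 0.5, and in 5 the exact permutation p adjusted over the 8 was under 0.05. For Ces1d the second probe set read 4233 in mouse 6 and 4867 in mouse 8 and 7753 to 11380 in the others. Between the Ces1d probe sets r was 0.95 (exact permutation adjusted p = 0.012), and 0.41 without mice 6 and 8. The slope of the second Ces1d set was -0.31 (limma adjusted p = 0.019). The brighter Ces1d probe set is of a type that shares probes with related transcripts. The second is of a different type, and which transcripts it measures was not tested. For Aldh3a2 the second probe set read 953, 2067, 1361, 2217, 824, 485, 2641 and 890 in mice 1 to 8. Mouse 5 was the highest on the brighter Aldh3a2 probe set (5156) and the second lowest on this one (824), and r was 0.74 (exact permutation adjusted p = 0.043, rho 0.45) and 0.91 without mouse 5 (exact permutation p = 0.0032). The slope of this second set was -0.38 and did not pass (limma adjusted p = 0.194). This second Aldh3a2 set is of a type that shares probes with related transcripts. The probe sets of Fmo5 did not follow each other (r = 0.12). Its second set, of a type that shares probes, was dim (132 to 253), and the brighter set ranged only 1.27-fold.

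Pairs of genes that act in sequence or share a known regulator were compared over the mice. The pairs were chosen with earlier results of these data known, so their p-values are not those of a list fixed beforehand. Of 14 pairs listed, 12 were measured, and 2 passed by r after Benjamini-Hochberg adjustment over the 12, 0 by rho. Aldh3a2 followed Cyp4a14, a fatty acid omega-hydroxylase whose products pass on to fatty aldehydes, and both are known targets of PPAR alpha. Cyp4a14 read 5803, 6542, 3572, 8108, 6735, 761, 8973 and 990 in mice 1 to 8, so mice 6, 8 and 3 were lowest for both genes. Between them r was 0.98 (exact two-sided permutation p = 0.00025, adjusted p = 0.0030) and rho 0.90 (p = 0.0046, adjusted p = 0.055), with r = 0.93 without mice 6 and 8. The second Aldh3a2 probe set gave an r of 0.75 with Cyp4a14 (exact permutation p = 0.030), and 0.87 without mouse 5 (p = 0.0050). That probe set is of a type that shares probes with related transcripts.

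**Figure D4:**
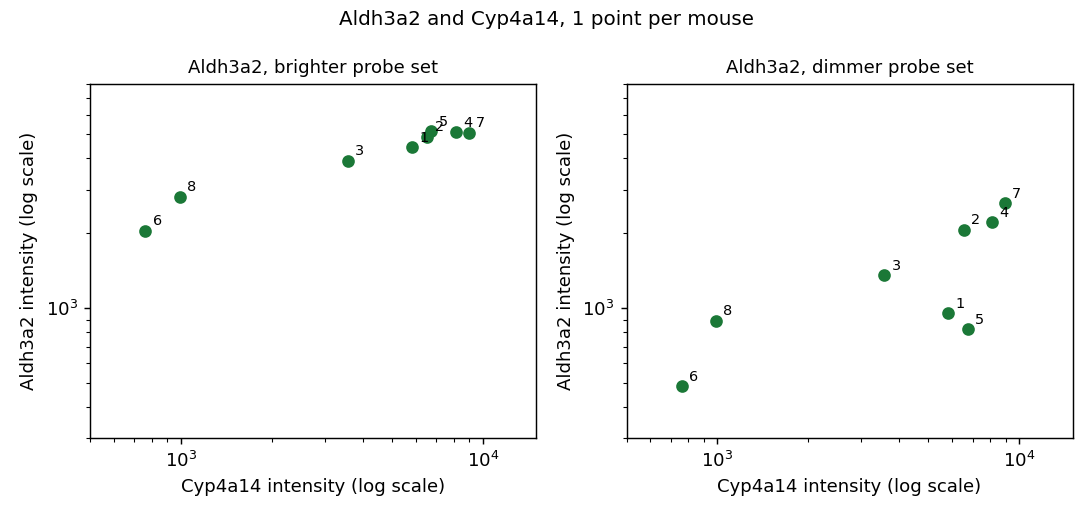
Intensity of Aldh3a2 (y axis, its brighter probe set on the left and its dimmer, second probe set on the right) against that of Cyp4a14, both on log scales, with 1 numbered point for each of the 8 mice. Mice 6 and 8 lie at the low end of both genes, and mouse 5 is high on the brighter Aldh3a2 probe set and low on the dimmer one.

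Sult1a1 followed Papss2, which makes the sulfate donor of sulfotransferases, with r of 0.81 (exact permutation p = 0.0067, adjusted p = 0.040) and rho of 0.79 (adjusted p = 0.168). That r was 0.58 without mice 4 and 6, and the call ended without mouse 2, 3, 4, 5, 6 or 8 (adjusted p from 0.055 to 0.27). Ces3a and Cyp7b1, an oxysterol hydroxylase that like Ces3a is male-biased in mouse liver, had an r of 0.61 (exact permutation adjusted p = 0.25) and passed without mouse 6 (r = 0.92, adjusted p = 0.0095). The other 9 pairs did not pass, with r from -0.44 to 0.70, Adh1 with Aldh2 the highest and Fmo1 with Fmo5 the lowest. Fmo1 with Fmo5 passed without mouse 7 (r = -0.90, adjusted p = 0.035), but its r had no stable sign. It was -0.10 without mouse 3, 0.41 without mice 3 and 5, -0.04 after quantile normalization and 0.05 with all probe sets of a gene averaged. Ephx2 with Cyp4a14 passed with arrays scaled to a common median (adjusted p = 0.045).

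Genes of the wider pathway gave the surrounding counts. The list of P450 enzymes and partners, other conjugating enzymes, cofactor enzymes and regulators held 73 genes, of which 58 were tested. Of the 58, 7 fell and 3 rose along the index in limma's test, beside 2.33% and 4.55% of all genes, so the risers were near the share of all genes. With mice 6 and 8 left out, 0 genes of the whole table passed as lower. Among 25 tested P450 enzymes and other phase I genes, 5 fell: Cyp4a14 (slope -0.91, adjusted p = 0.0071), Cyp2b13 (-0.74), Cyp4a10 (-0.42, on a probe set shared with relatives), Cyp2b9 (-0.40) and Cyp2c29 (-0.27). Xdh, xanthine dehydrogenase, rose (0.55, adjusted p = 0.045). Of 17 other conjugating enzymes Gstt1 fell (-0.17, adjusted p = 0.044) and Gstm2 rose (0.36, adjusted p = 0.048), both glutathione transferases. Of 6 cofactor genes Papss2 fell (-0.15, adjusted p = 0.041) and Gclc, for glutathione synthesis, rose (0.23, adjusted p = 0.024).

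Of 10 tested regulators, 0 passed in either direction in limma's test, and 1 had an unadjusted p under 0.05, the growth hormone receptor gene Ghr (slope -0.16, adjusted p = 0.067). Nr1i3 (CAR), a receptor that induces many of these enzymes, read 5537 to 7913 (median 6885), Nr1i2 (PXR) 412 to 682 (median 638) and Ahr, the dioxin receptor, 316 to 544 (median 476). Nfe2l2, the regulator of the oxidative stress response, read 977 to 1272 (median 1096). Ppara had a wide range, from 344 in mouse 6 to 3038 in mouse 3, and a slope of 0.10 (adjusted p = 0.89). Hnf4a was lowest in mouse 5 at 266 and highest in mouse 8 at 1308, with a slope of 0.18 (adjusted p = 0.59).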

How the data were processed

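Values are the authors' deposited linear intensities, 1 for each probe set in each mouse. Trimmed by 2% at each end, the array means lay between 499.83 and 499.85, so they were treated as already scaled. Which software summarized the probes is not given in these sources. Each of the 8 columns belonged to a sample, with 0 left over. Intensities were raised to a floor of 37.2 and converted to log2. Of 12488 probe sets, 66 controls were left out, and 6265 (4869 genes) with a mean of at least 165.2 were tested. Symbols came from the platform annotation, 1 symbol for 10833 probe sets, and all 42 members matched RefSeq by Entrez identifier.

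limma 3.58.1 (R 4.3.3) gave the spread test, a one-sided F test of each variance against the brightness trend (prior degrees of freedom 3.80), and the slopes on the index (robust, with trend). Probe sets of the index genes were left out of the slope fit, which kept 6252. Correlations used exact two-sided permutation over 40320 orders of the mice (scipy 1.17.1). The tests were tried on simulated data. P-values adjusted over the members alone, though planned, are not given. Members, lists and pairs were chosen with earlier results of these data known. Values in all mice are given for the 12 tested members with the largest SD and the 8 with the largest slope statistic, and of the pathway list, genes past a test and regulators are named. Alternatives covered the floor, filter, scaling, probe sets, variance prior, index, covariates and each mouse left out, and those with the array set or without mice 6 and 8, and quantile normalization for the counts by mouse, were added after seeing the data. P-values of the F test concern the spread between mice, and those of slopes and correlations concern association over the mice. The number of mice limits the precision of all of them.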

Additional observations from a re-analysis of the deposited data

Results flagged for a closer look

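Dixon's criterion for a value apart from the other 7 picked out a single mouse in 2 of the 30 tested members. Chance does so in about 1 gene in 20, and 8.69% of all genes tested had such a mouse, so the members hold no excess. Akr1a1 had 10509 in mouse 5, and the gap to the next mouse took up 0.73 of the range on the log2 scale. Sult1a1 had 1472 in mouse 6, with a gap of 0.58 of the range. Mouse 5 is also the mouse with the raised Gapdh 3′ to 5′ ratio, and its part in the Akr1a1 value was not tested.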

How the results depend on the processing

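The spread test, which called 0% of all genes in the main setting, called 0 members in each of 18 alternatives. The 5 slope calls became 1 with no filter on dim probe sets, 3 with family probe sets left out (27 of the members then remained, without Aldh9a1, Ces1d and Ugt2b5), 0 with Iigp1 alone as the index, 3 with the hepatocyte score as a second term, 3 with the rank of the index and 0 with mice 6 and 8 left out. The second Ces1d probe set was left out with the family probe sets, though its type differs. Leaving out 1 mouse at a time gave between 0 and 5 slope calls. The 2 pairs past the threshold became 0 with mice 6 and 8 left out, and between 1 and 3 with 1 mouse left out. None of the 5 called slopes and 2 called pairs changed sign in the alternatives run, while slopes that did not pass, such as that of Sult2a2 (0.03 with mice 6 and 8 left out), could. The other 13 slope counts and 11 pair counts stayed within 1.5 times. Causes of these differences were not tested, apart from the fewer mice or probe sets in some. No paired analysis was possible because the samples form 1 group. The number of mice and the signal over background limit the precision, and dim members have only a bound.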
